A study of Mus musculus with 16 samples.

Results

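Club cells are the domed secretory cells of the small airways, and their products line the airway surface and modify inhaled chemicals. They secrete secretoglobins, small proteins of the airway lining fluid, and carry enzymes that oxidize, hydrolyse or conjugate foreign compounds. The cytochrome P450 enzymes of these cells make them a known site of toxicity for some inhaled and blood-borne chemicals, and the cells can divide and renew the airway lining after injury.

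Described here are 9 club cell genes: the secretoglobins Scgb1a1, Scgb3a1 and Scgb3a2, the secreted lipid-binding protein Bpifa1, the lipid-transfer protein Sec14l3, and the enzymes Aldh1a1, Ces1d, Aox3 and Fmo2. Their probes were found on the array by gene symbol or an older synonym, but the 9 genes were chosen with earlier results of these data known. All 9 were found, with 14 probes, among 21629 genes tested. All 14 probes were well above background on all 16 arrays. In brief, 3 of the 9 genes were called 24 h after exposure, Sec14l3, Aldh1a1 and Ces1d. They were 1.43 to 1.47-fold higher in ozone than in air lungs of that time, and none of the 9 was called at 6 h. On the probes used, the air lungs of 24 h had the lowest mean of the 4 groups of exposure and time for all 3. For Sec14l3 the call rests on the brightest of its 4 probes.

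Whole lungs came from newborn BALB/c mice, an inbred strain, that breathed ozone, an oxidizing air pollutant, or filtered air for 3 h at an age of 3 days. The 4 groups of 4 mice were ozone at 1000 ppb with lungs taken 6 h after exposure, filtered air with lungs taken at 6 h, ozone at 1000 ppb with lungs taken at 24 h, and filtered air with lungs taken at 24 h. Per the labels, all mice were bred free of specific pathogens, cross-fostering gave every pup a dam while it was exposed, each time was run separately with its own air littermates, and the 4 mice of a group were a random choice among those exposed. The p-values rest on the spread between mice within a group, pooled over all 4 groups. The standard error of a gene is therefore the same at 6 h and at 24 h, even where the groups differ in spread. Whole lung holds many cell types, so fewer cells of a type and less RNA per cell cannot be told apart.

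Each lung had 1 single-colour array. The processed signal at the 75th percentile lay between 574 and 946 per array, 65.0% to 83.9% of probes were well above background, and no spot was saturated. Levels below are log2 of the signal minus the 75th percentile of the array, so that 0 is a signal at that percentile. A change is the difference of 2 group means of this level, in log2, with its standard error (SE). A gene was called where limma's test, adjusted over all genes by Benjamini-Hochberg, gave an adjusted p under 0.05. With 4 arrays per group the precision is limited: across all genes the median SE was 0.13.

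Sec14l3 and Aldh1a1 were both called higher at 24 h, and Scgb3a1 and Bpifa1 varied together from lung to lung. With group means taken off, the correlation r was 0.77 for Scgb3a1 and Bpifa1. It was 0.05 for Aldh1a1 and the brightest Sec14l3 probe. The 250 bases before the start site of these 4 genes are shown first, from RefSeq on mouse build GRCm38.p6. Capitals mark matches, on either strand, to the C/EBP motif TTNNGNAA, the FOX motif TGTTTNC and the NKX2-1 motif CAAGTG, and, on the gene's strand, to the TATA box TATAAA. These are motifs of transcription factor families known to act in airway epithelium, and the TATA box is a core promoter element. The Sec14l3 stretch is chr11:4064603-4064852 and runs with the plus strand, as do the other 3. The Aldh1a1 stretch is chr19:20601718-20601967, before the more downstream of its 2 starts in the table. The Scgb3a1 stretch is chr11:49663345-49663594, and the Bpifa1 stretch is chr2:154142630-154142879.
Sec14l3: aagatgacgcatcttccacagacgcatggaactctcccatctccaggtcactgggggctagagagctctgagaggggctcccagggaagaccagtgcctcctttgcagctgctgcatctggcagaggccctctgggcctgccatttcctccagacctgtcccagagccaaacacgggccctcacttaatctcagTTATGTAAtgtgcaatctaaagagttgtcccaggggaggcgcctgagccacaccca
Aldh1a1: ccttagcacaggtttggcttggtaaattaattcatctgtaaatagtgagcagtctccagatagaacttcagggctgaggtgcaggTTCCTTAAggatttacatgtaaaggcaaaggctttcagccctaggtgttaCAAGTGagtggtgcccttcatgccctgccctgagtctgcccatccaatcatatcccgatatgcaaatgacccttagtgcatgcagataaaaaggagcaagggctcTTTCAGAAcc
Scgb3a1: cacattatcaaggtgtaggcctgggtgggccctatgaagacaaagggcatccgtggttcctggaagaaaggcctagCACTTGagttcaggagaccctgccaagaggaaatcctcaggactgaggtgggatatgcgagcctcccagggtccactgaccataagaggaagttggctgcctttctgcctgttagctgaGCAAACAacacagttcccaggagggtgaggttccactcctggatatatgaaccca
Bpifa1: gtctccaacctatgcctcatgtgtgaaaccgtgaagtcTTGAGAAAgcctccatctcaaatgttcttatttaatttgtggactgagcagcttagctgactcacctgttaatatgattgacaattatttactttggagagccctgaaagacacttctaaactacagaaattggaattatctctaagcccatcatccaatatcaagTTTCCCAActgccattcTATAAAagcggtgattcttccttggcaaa
The Sec14l3 stretch held 1 C/EBP match, which began 56 bases before the start. The Aldh1a1 stretch held C/EBP matches at 165 and 10 bases and an NKX2-1 match at 115 bases before the start. The Scgb3a1 stretch held an NKX2-1 match at 174 bases and a FOX match at 55 bases. The Bpifa1 stretch held C/EBP matches at 212 and 46 bases and a TATA box at 29 bases. Among 32851 promoter stretches of the same length, 36.8% held the C/EBP motif, 11.6% the NKX2-1 motif, 17.8% the FOX motif and 7.59% the TATA box. The antioxidant response element TGACNNNGC, searched on both strands, was in 10.2% of them and in none of the 4 shown. A match is a run of letters and says nothing of binding. Of the 9 genes, 6 had a promoter in the table.

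At 24 h after exposure the called genes were an oxidizing enzyme, an ester-cleaving enzyme and a lipid-transfer protein, and no secretoglobin was called. Of the 9 genes, 3 were called higher in ozone lungs and none lower, while 0.684% of all 21629 genes were called higher and 1.32% lower. With no adjustment, 6 of the 9 had a limma p under 0.05. The largest limma p of these 6 was 0.0414, of Bpifa1, which ranked 2647 among all 21629 genes. The median change of the 9 was 0.51, against 0.02 over all genes. In 3 of the 9, all 4 ozone values lay above all 4 air values, as they did in 6.80% of all genes. In none of the 9 did all ozone values lie below, as they did in 4.96% of all genes.

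Ces1d, a carboxylesterase that cleaves ester and amide bonds of drugs and lipids, had levels of 4.22, 4.36, 4.31 and 4.35 in the ozone lungs of 24 h, against 3.80, 3.84, 3.63 and 3.74 in the air lungs of 24 h. The lowest ozone lung stood well clear of the highest air lung. The change was 0.56 ± 0.08 (SE, 4 lungs per group), or 1.47-fold, with a limma adjusted p of 0.00119. On the slide with replicates 1 and 2 the change was 0.47 and on the slide with replicates 3 and 4 it was 0.65. Neither slide alone, with 2 lungs per group, gave a call (limma adjusted p of 0.188 and 0.0766). The probe, named Ces3 in the older symbol of the gene, lies on chromosome 8 from 95693648 to 95694933 (mm9, minus strand). Its 60 bases span 1286 bases of genome, so it crosses an exon junction and reads spliced RNA. Its sequence is given as the only view of this gene here, with no base in capitals.
Ces1d probe: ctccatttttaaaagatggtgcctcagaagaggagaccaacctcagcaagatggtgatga
Carboxylesterases of this cluster are close copies of each other, so the probe may also read a neighbour.

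Aldh1a1, which oxidizes retinal to retinoic acid and clears aldehydes, had levels of 4.80, 4.92, 5.13 and 4.86 in the ozone lungs of 24 h, against 4.19, 4.45, 4.36 and 4.62 in the air lungs of 24 h. All ozone lungs stood above all air lungs. The change was 0.52 ± 0.09, or 1.44-fold (limma adjusted p = 0.00419). It was 0.54 on the first slide and 0.50 on the second, with no call on either (limma adjusted p of 0.170 and 0.269). With the authors' deposited table in place of the scanner signal it was 0.48 and missed the threshold (limma adjusted p = 0.0507). The probe lies on chromosome 19 from 20717764 to 20717823 (mm9). Aldh1a7, a close copy, had a change of 0.13 ± 0.08 on its own probe, which was not called (limma adjusted p = 0.551).

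Sec14l3, a member of the family of SEC14-like lipid-transfer proteins, had levels of 6.23, 6.05, 6.07 and 5.99 in the ozone lungs of 24 h, against 5.47, 5.47, 5.68 and 5.67 in the air lungs of 24 h. The groups did not overlap. The change was 0.51 ± 0.09, or 1.43-fold (limma adjusted p = 0.00594). It was 0.67 on the first slide and 0.35 on the second, with no call on either (limma adjusted p of 0.129 and 0.556). These values are from the brightest of its 4 probes, on chromosome 11 from 3978928 to 3978987 (mm9), which the files list under the clone name 1110069O07Rik and which was matched to Sec14l3 by synonym.

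The other 3 Sec14l3 probes gave smaller changes at 24 h, and none was called in the fit with each probe as a row. Over 32340 probes, 0.439% were called higher at 24 h, and of the 14 member probes 3 were, those just described for Ces1d, Aldh1a1 and Sec14l3. The probe at 3977466 to 3977525 changed by 0.30 ± 0.16, the probe at 3975248 to 3975307 by 0.30 ± 0.15, and the probe at 3970101 to 3971424 by 0.34 ± 0.15, with limma adjusted p between 0.383 and 0.496. The last of these crosses an exon junction and spans 1324 bases of genome.
Sec14l3 junction probe: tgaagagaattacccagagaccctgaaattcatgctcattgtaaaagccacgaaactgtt
On this probe ozone replicate 1 of 24 h was at -0.18, within the air lungs (-0.07, 0.13, -0.39 and -0.14), and the other ozone lungs were at 0.38, 0.38 and 0.29. On the brightest probe the same ozone lung had the highest level of its group. With the mean of the 4 probes in place of the brightest, the change of Sec14l3 was 0.36 and was not called (limma adjusted p = 0.124).

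**Figure D1:**
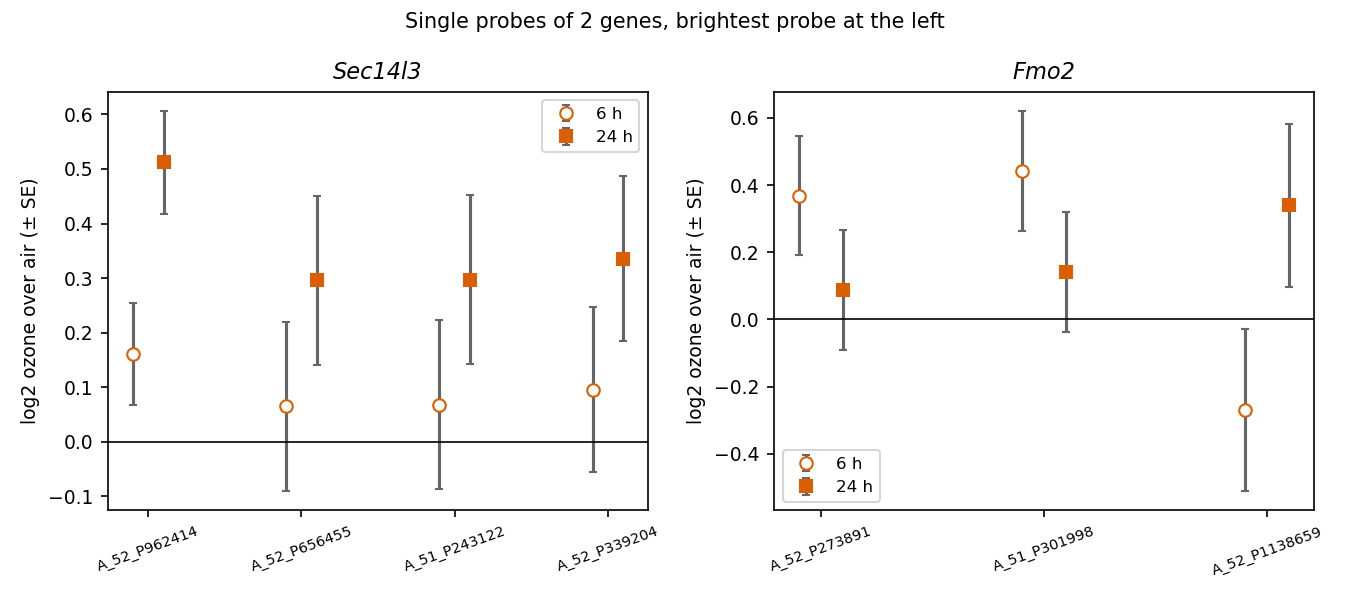
Change of each single probe of Sec14l3 (left) and Fmo2 (right), as log2 ozone over air ± SE with 4 arrays per group; open circles are 6 h and filled squares 24 h, and the brightest probe is at the left of each panel. The brightest Sec14l3 probe, at 0.51 for 24 h, stands above its other probes at 0.30 to 0.34, and the dimmest Fmo2 probe has the opposite sign to the others at 6 h.

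None of the 4 secretory genes was called at 24 h, and the ozone lungs of 24 h were spread more widely for Scgb3a1 and Bpifa1 (SD of 1.14 and 0.63) than for Scgb3a2 and Scgb1a1 (0.21 and 0.15). Scgb3a1, a secretoglobin of airway secretory cells, had levels of 3.28, 5.11, 5.60 and 5.75 in the ozone lungs of 24 h, against 2.48, 2.82, 4.57 and 3.06 in the air lungs. Ozone replicates 2 to 4 stood above every air lung, while ozone replicate 1 lay among them. The fitted change was 1.70 ± 0.53, the highest of the 9 genes, with a 95% interval of 0.58 to 2.83 and a limma adjusted p of 0.127. Without ozone replicate 1 of 24 h the change was 2.25 and was called (limma adjusted p = 0.0202). It was also called with array weights, which give deviating arrays less influence (2.30, adjusted p = 0.00161), with normexp background correction (1.80, adjusted p = 0.0299) and with replicate number as a block (1.70, adjusted p = 0.0113). Over 14 alternatives it was called in 3. The probe lies on chromosome 11 from 49478489 to 49478548 (mm9).

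Bpifa1, also called SPLUNC1 or Plunc, a secreted protein that binds lipids and bacteria in the airway lining, had levels of -3.06, -1.98, -1.66 and -1.84 in the ozone lungs of 24 h, against -3.27, -3.18, -2.16 and -2.92 in the air lungs. As for Scgb3a1, ozone replicate 1 was the lowest ozone lung and air replicate 3 the highest air lung. The change was 0.75 ± 0.34 (95% interval 0.03 to 1.46, limma adjusted p = 0.338), and with array weights it was called (adjusted p = 0.0211). Its probe spans 421 bases on chromosome 2 from 153973411 to 153973831 (mm9) and crosses an exon junction.

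Scgb3a2, a secretoglobin that binds the receptor MARCO, had levels of 7.72, 8.12, 8.16 and 7.89 in the ozone lungs of 24 h, against 7.23, 7.47, 7.66 and 7.87 in the air lungs. The groups overlapped in the lowest ozone lung and the highest air lung. The change was 0.42 ± 0.16 (95% interval 0.09 to 0.75, limma adjusted p = 0.213), with a call under array weights alone (0.57, adjusted p = 0.00854). Scgb1a1, the main club cell secretoglobin and the usual marker of these cells, had levels of 7.00, 7.25, 7.06 and 6.89 in the ozone lungs of 24 h, against 6.87, 6.90, 6.77 and 7.16 in the air lungs. The groups overlapped over most of their range. The change was 0.12 ± 0.12, with a 95% interval of -0.12 to 0.37 (limma adjusted p = 0.763), and no alternative gave a call. Its probe lies on chromosome 19 from 9158197 to 9158256 (mm9, minus strand).

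The remaining enzymes were not called at 24 h. Aox3, an aldehyde oxidase that acts on aldehydes and nitrogen heterocycles, had levels of -1.93, -1.55, -1.56 and -1.58 in the ozone lungs of 24 h, against -1.88, -1.74, -1.86 and -1.82 in the air lungs. Ozone replicates 2 to 4 stood above every air lung and ozone replicate 1 below every air lung. The change was 0.17 ± 0.11 (95% interval -0.07 to 0.41, limma adjusted p = 0.615), and it was -0.11 with normexp. The Aox3 probe lies on chromosome 1 from 58245203 to 58245262 (mm9).

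Fmo2, the flavin monooxygenase of lung that oxidizes nitrogen and sulfur in foreign compounds, had levels of -1.28, -1.16, -1.35 and -0.82 in the ozone lungs of 24 h, against -1.10, -1.30, -1.27 and -1.28 in the air lungs. The change was 0.09 ± 0.18 (95% interval -0.29 to 0.46, limma adjusted p = 0.930), and it was -0.03 with normexp. These values are from the brightest probe, on chromosome 1 from 164805530 to 164805589 (mm9, minus strand). The other probes, at 164806827 to 164806886 and at 164818301 to 164818360, gave 0.14 and 0.34 at 24 h, and neither was called.

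**Figure D2:**
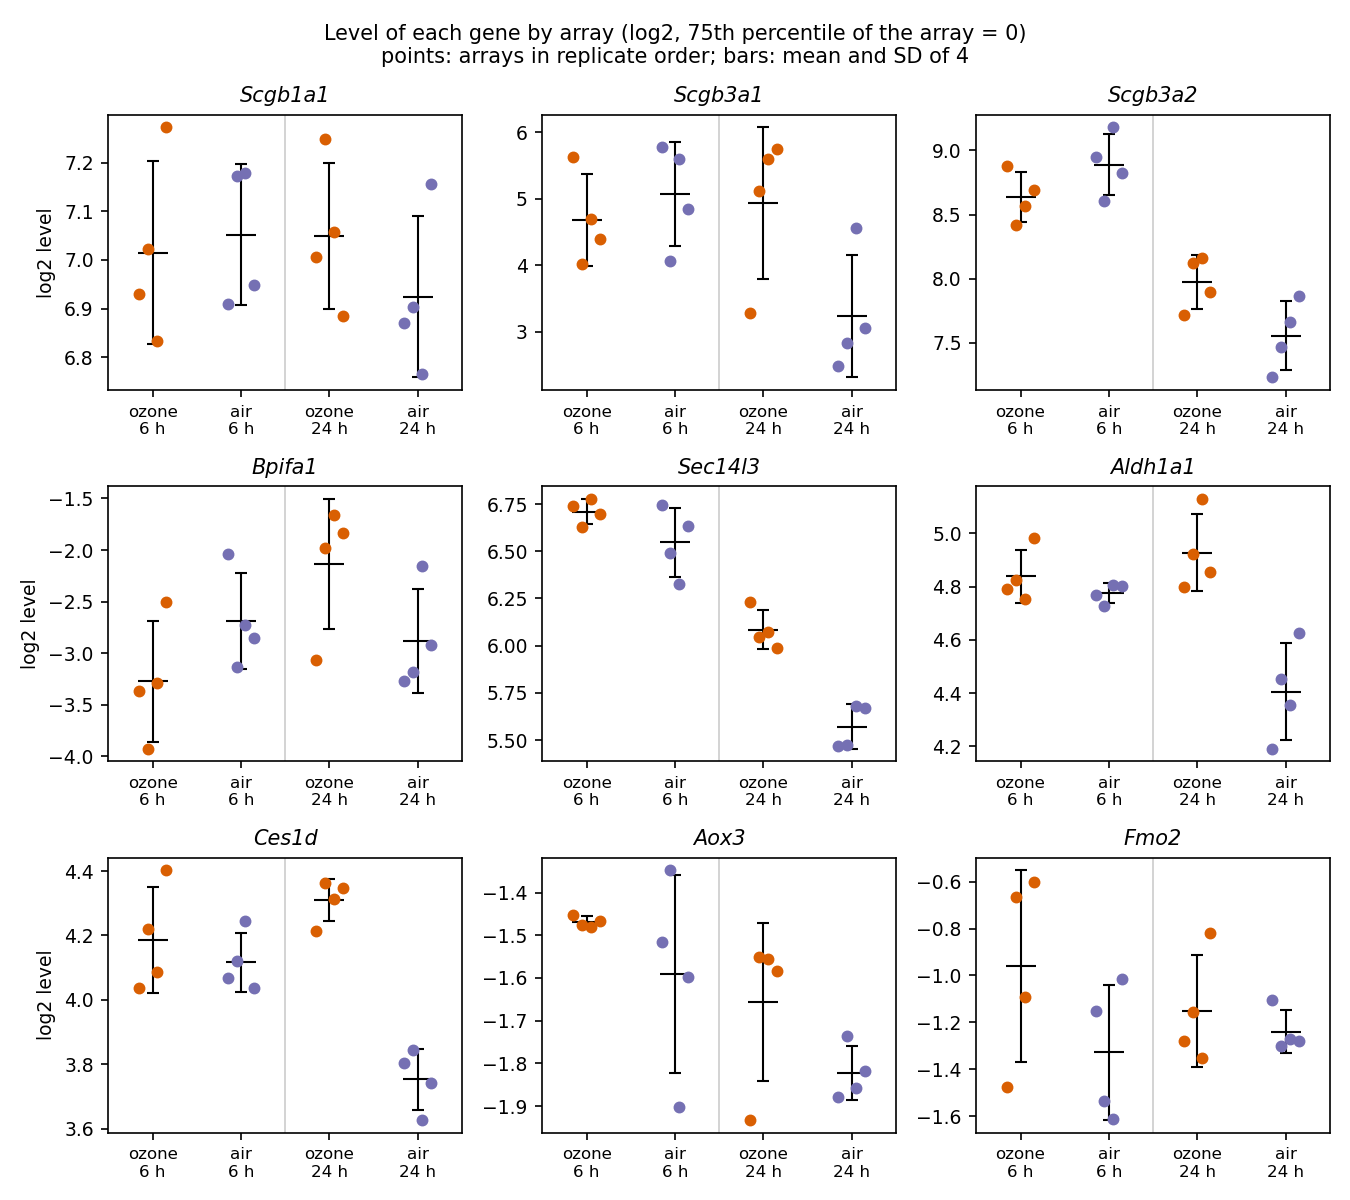
Level of each of the 9 genes on each array, as log2 signal with the 75th percentile of the array at 0, on an axis of its own per gene; points are arrays in replicate order, and bars give the mean and SD of 4 arrays. Ces1d, Aldh1a1 and Sec14l3 show no overlap between ozone (orange) and air (purple) at 24 h, and all 9 genes overlap at 6 h.

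At 6 h after exposure none of the 9 genes was called in either direction by limma, and none had an unadjusted p under 0.05. Over all genes 1.36% were called higher and 3.12% lower at this time. The groups overlapped in all 9, while all ozone values lay above all air values in 4.61% of genes and below them in 4.87%. The median change of the 9 was 0.06, against 0.07 over all genes. Of the 14 member probes, 0 were called, against 3.68% of all probes called in either direction.

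The 3 genes that rose at 24 h had changes at 6 h between 0.06 and 0.16. Ces1d had levels of 4.04, 4.22, 4.09 and 4.40 in the ozone lungs of 6 h, against 4.07, 4.12, 4.24 and 4.04 in the air lungs of 6 h, a change of 0.07 ± 0.08 with a 95% interval of -0.10 to 0.24. Aldh1a1 had 4.79, 4.82, 4.76 and 4.98 in the ozone lungs of 6 h, against 4.77, 4.73, 4.81 and 4.80 in the air lungs of 6 h, a change of 0.06 ± 0.09 with a 95% interval of -0.13 to 0.25. Both intervals end below the change found for the same gene at 24 h, but that change has an SE of its own. The difference between the times is tested below. Sec14l3 had 6.74, 6.63, 6.78 and 6.70 in the ozone lungs of 6 h, against 6.75, 6.49, 6.33 and 6.63 in the air lungs of 6 h. Its change was 0.16 ± 0.09 (limma adjusted p = 0.340), and with quantile normalization it was 0.28 and was called (adjusted p = 0.0431).

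The secretory genes at 6 h had fitted changes below 0, with no calls. Scgb3a1 had levels of 5.63, 4.01, 4.69 and 4.40 in the ozone lungs of 6 h, against 5.77, 4.06, 5.59 and 4.85 in the air lungs of 6 h, a change of -0.38 ± 0.53. Bpifa1 had -3.37, -3.93, -3.29 and -2.50 in the ozone lungs of 6 h, against -2.04, -3.14, -2.73 and -2.85 in the air lungs of 6 h, a change of -0.58 ± 0.34 (limma adjusted p = 0.335). Both genes thus varied by more than 1 log2 unit among lungs of a group. Scgb3a2 had 8.88, 8.42, 8.57 and 8.69 in the ozone lungs of 6 h, against 8.95, 8.61, 9.18 and 8.82 in the air lungs of 6 h, a change of -0.25 ± 0.16 (limma adjusted p = 0.369). Scgb1a1 had 6.93, 7.02, 6.83 and 7.27 in the ozone lungs of 6 h, against 6.91, 7.17, 7.18 and 6.95 in the air lungs of 6 h. Its change was -0.04 ± 0.12 and turned sign under some alternatives, between -0.09 and 0.09.

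Aox3 had levels of -1.45, -1.47, -1.48 and -1.47 in the ozone lungs of 6 h, against -1.52, -1.35, -1.90 and -1.60 in the air lungs of 6 h, a change of 0.12 ± 0.11. The ozone lungs lay close together, and the air lungs spread on both sides of them. Fmo2 had -1.48, -0.66, -1.09 and -0.60 in the ozone lungs of 6 h, against -1.15, -1.53, -1.61 and -1.02 in the air lungs of 6 h, a change of 0.37 ± 0.18 (95% interval -0.01 to 0.74, limma adjusted p = 0.246). The other Fmo2 probes gave 0.44 and -0.27 at 6 h, so its probes disagreed in sign. None was called.

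**Figure D3:**
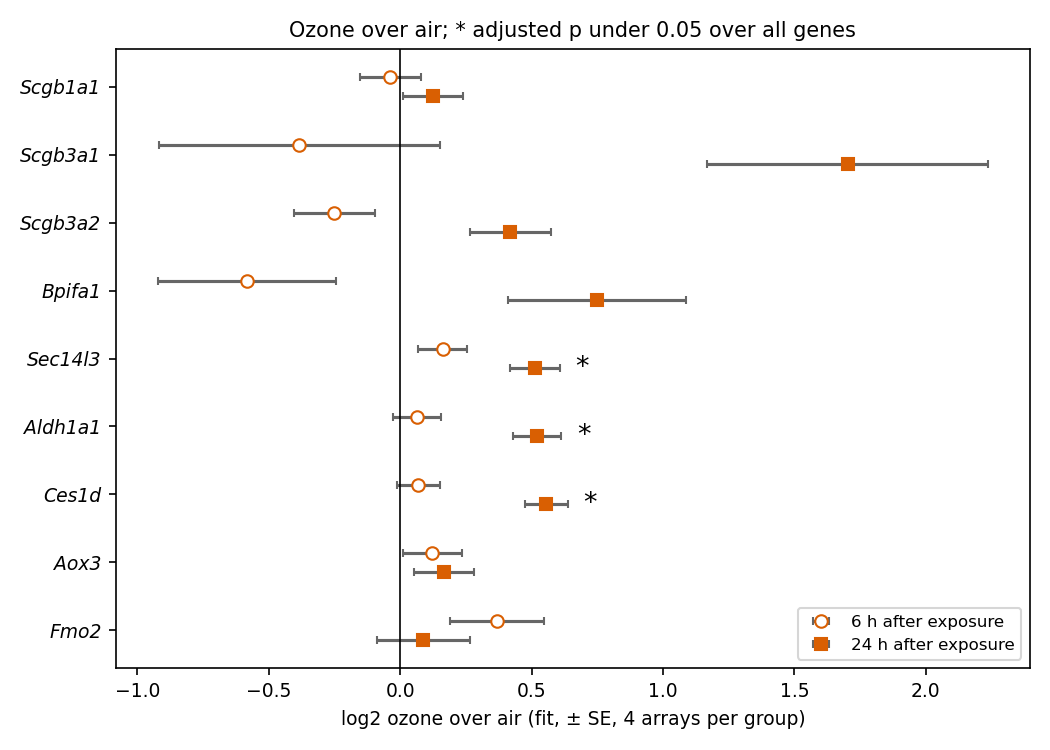
Change of each gene as log2 ozone over air ± SE, fitted by limma with 4 arrays per group, at 6 h (open circles) and 24 h (filled squares); an asterisk marks an adjusted p under 0.05 over all genes. Only Sec14l3, Aldh1a1 and Ces1d at 24 h carry an asterisk, and Scgb3a1 and Bpifa1 have the widest bars.

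Whether the effect of ozone differed between the times was tested as the change at 24 h minus that at 6 h. None of the 9 differences was called, and over all genes 0.0647% were called. With no adjustment, 6 of the 9 had a limma p under 0.05. The largest limma p of these 6, that of Sec14l3, ranked 1332 among all 21629 genes. The difference was 0.49 ± 0.12 for Ces1d (limma adjusted p = 0.103), 0.46 ± 0.13 for Aldh1a1 (adjusted p = 0.155) and 0.35 ± 0.13 for Sec14l3 (adjusted p = 0.279). It was 2.09 ± 0.76 for Scgb3a1 (95% interval 0.49 to 3.68), 1.33 ± 0.48 for Bpifa1 (0.32 to 2.34) and 0.67 ± 0.22 for Scgb3a2 (0.21 to 1.13), with adjusted p between 0.216 and 0.256. The median difference of the 9 was 0.46, against -0.04 over all genes. Scgb1a1 (0.16 ± 0.16), Aox3 (0.04 ± 0.16) and Fmo2 (-0.28 ± 0.25) had intervals that held 0. The 3 genes called at 24 h are therefore not shown to respond differently at the 2 times. With normexp 3 of the differences were called, those of Aldh1a1, Ces1d and Scgb3a2, and with array weights another set of 3, those of Scgb3a1, Scgb3a2 and Sec14l3.

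The air lungs themselves differed in level between the times. Mean levels in air lungs were lower at 24 h than at 6 h by 1.84 for Scgb3a1, 1.34 for Scgb3a2 and 0.98 for Sec14l3, and by 0.36 to 0.37 for Ces1d and Aldh1a1, while Scgb1a1 differed by 0.13. The Sec14l3 value is that of its brightest probe, and on its other 3 probes the air lungs were higher at 24 h than at 6 h, by 0.03, 0.21 and 0.47. Each time has its own mice and slides, so time and slide cannot be told apart and no test is given. Ces1d averaged 4.19 ± 0.16 in the ozone lungs of 6 h, 4.12 ± 0.09 in the air lungs of 6 h, 4.31 ± 0.07 in the ozone lungs of 24 h and 3.75 ± 0.09 in the air lungs of 24 h (SD, n = 4 each). Aldh1a1 averaged 4.84 ± 0.10, 4.78 ± 0.04, 4.93 ± 0.14 and 4.41 ± 0.18 in the same 4 groups. For both genes the air lungs of 24 h were the lowest group, and the means of the other 3 groups lay between 4.12 and 4.31 for Ces1d and between 4.78 and 4.93 for Aldh1a1. Sec14l3 averaged 6.71 ± 0.06, 6.55 ± 0.18, 6.08 ± 0.10 and 5.57 ± 0.12 in the same 4 groups.

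Other genes of club cells were examined with a list of 28, all tested and none of them among the 9. At 24 h 5 of the 28 were called higher in ozone lungs, none was called lower, and 27 had a change above 0, with a median of 0.30. Over all genes 0.684% were called higher and 1.32% lower, with a median of 0.02. Above 0 at 24 h were also 18 of 19 ciliated, 10 of 10 alveolar type I and 9 of 10 goblet markers. The same held for 7 of 8 basal and 7 of 7 adipocyte markers. It held for 8 of 14 alveolar type II, 7 of 11 leukocyte and 1 of 9 liver markers. Medians at 24 h were 1.09 for adipocyte, 0.34 for leukocyte, 0.32 for goblet, 0.28 for ciliated and 0.23 for basal markers. They were 0.12 for alveolar type I, 0.05 for alveolar type II and -0.28 for liver markers. Under normexp the club cell list had 0.33, adipocyte 0.76, alveolar type I 0.24, alveolar type II 0.13 and ciliated markers 0.09. Leukocyte, goblet, basal and liver markers then had -0.04, -0.06, -0.13 and -0.65. Cyp2a5, a cytochrome P450 that activates several toxicants, had levels of -1.10, -0.41, -0.18 and -0.09 in the ozone lungs of 24 h, against -2.05, -2.40, -1.80 and -1.85 in the air lungs. The groups did not overlap, and Cyp2a5 rose by 1.58 ± 0.23 (limma adjusted p = 0.00120). Cyp2b10, another cytochrome P450 of foreign compounds, rose by 0.89 ± 0.18 (adjusted p = 0.0155), but by 0.34 with no call under normexp. The glutathione transferase Gsta3 rose by 0.55 ± 0.10 (adjusted p = 0.00778). The lactone-cleaving enzyme Pon1 rose by 0.60 ± 0.12 (adjusted p = 0.0135), and without air replicate 2 of 24 h its adjusted p was 0.0540. The fifth, the carbonyl reductase Dcxr, is named after its values were seen and rose by 0.50 ± 0.12 (adjusted p = 0.0425). Cyp2a5, Cyp2b10 and Gsta3 have near copies that their probes may also read.

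The next 5 genes were not called and are named after their values were seen. Reg3g, a secreted antibacterial lectin, had a change of 2.20 ± 0.83, Tff2, a trefoil peptide of mucous surfaces, 2.11 ± 0.92, and Bpifb1, a secreted relative of Bpifa1, 0.76 ± 0.37 at 24 h. The iron-binding protein Ltf had 0.32 ± 0.25. Cyp2f2, the cytochrome P450 most used to mark club cells, had 0.30 ± 0.16. The summed level of the list, the log2 of the mean linear signal of its genes, was 4.326 to 4.533 in the ozone lungs of 24 h. In the air lungs of 24 h it was 4.110 to 4.308, with no overlap. The summed level of the ciliated markers did not overlap at 24 h either. At 6 h 0 of the 28 were called, 10 had an unadjusted limma p under 0.05 and 18 had a change above 0. Their median at 6 h was 0.15, against 0.07 over all genes. Over all 21629 genes, a limma p of 0.0535 ranked 4705 at 6 h. The count at 24 h was 3 when ozone replicate 3, air replicate 1 or air replicate 2 of 24 h was left out, and 3 with Xist as a covariate, a gene read here for the sex of the pup. Lungs with low Xist numbered 3 of 4 in ozone and 1 of 4 in air at 24 h, and the calls of Sec14l3, Aldh1a1 and Ces1d held with that covariate.

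**Figure D4:**
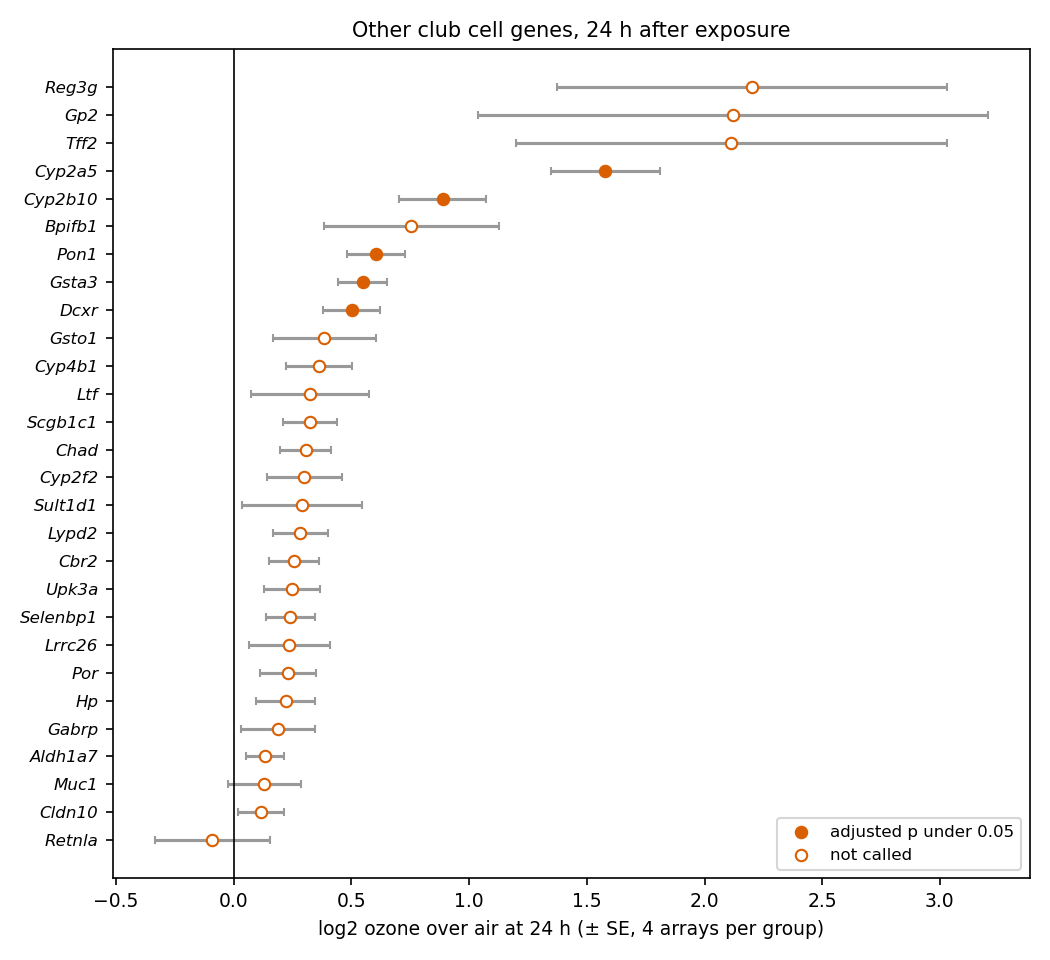
Change of the 28 other club cell genes at 24 h, as log2 ozone over air ± SE with 4 arrays per group, sorted by size; filled points have an adjusted p under 0.05 over all genes. The filled points are Cyp2a5, Cyp2b10, Pon1, Gsta3 and Dcxr, and 27 of the 28 genes lie right of 0.

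Family members of the 9 genes were tested in the same way. Of 26 relatives, 21 were tested, 2 rose at 24 h and none fell, while 0.684% of all genes were called higher and 1.32% lower. Aldh1a7, Bpifb1 and Scgb1c1 were on this list and also among the other club cell genes. Ces1e, a carboxylesterase of the same cluster as Ces1d, had -0.05, -0.06, -0.05 and -0.21 in the ozone lungs of 24 h, against -0.66, -0.52, -0.63 and -0.60 in the air lungs. The groups did not overlap, and it rose by 0.51 ± 0.08 (limma adjusted p = 0.00202). The median over the relatives at 24 h was 0.29, and -0.05 under normexp, which also moved the median of all genes to -0.14 at 24 h and to 0.14 at 6 h. At 6 h 1 relative rose and none fell, the aldehyde oxidase Aox1, by 0.37 ± 0.08 (limma adjusted p = 0.0178), while 1.36% of all genes were called higher. Aox1 was called in 9 of 14 alternatives, and without ozone replicate 1 or air replicate 4 of 6 h it was not (adjusted p of 0.0504 and 0.0787).

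Aldh1a1 makes retinoic acid, and 17 other genes of retinoid metabolism and response were tested. None was called by limma at either time, with 3 at 6 h and 4 at 24 h under an unadjusted p of 0.05. Over all 21629 genes, a limma p of 0.0535 ranked 4705 at 6 h and one of 0.0414 ranked 2647 at 24 h. At 24 h the smallest p belonged to Rarres2, a secreted protein induced by retinoids, with a change of 0.36 ± 0.11 (adjusted p = 0.114). Of 19 airway epithelial transcription factors and Notch genes, 3 rose at 6 h, none fell, and none was called at 24 h, where 3 had an unadjusted p under 0.05. Notch1, a receptor of the pathway that sets secretory against ciliated fate in airways, rose by 0.52 ± 0.11 at 6 h (adjusted p = 0.0181), and was called in 9 of 14 alternatives. Notch3 rose by 0.47 ± 0.11 (adjusted p = 0.0265), and was called in 8 of 14 alternatives and 12 of 16 fits that left out 1 array, with 0.28 on the first slide and 0.66 on the second. The Notch target Hey1 rose by 0.46 ± 0.13 (adjusted p = 0.0459), but only 2 of 14 alternatives called it. At 24 h Foxa2, a forkhead factor of airway epithelium, had 0.38 ± 0.11 (adjusted p = 0.0805). Whole lung also holds vessels, where Notch genes are expressed, and which cells gave these values was not tested.

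Markers of other cell types were set beside the rise at 24 h. Of 19 ciliated cell markers, 1 rose at 24 h, Tppp3, a tubulin-binding protein, by 0.40 ± 0.09 (limma adjusted p = 0.0305), and 10 had an unadjusted p under 0.05. Tppp3 was called in 9 of 14 alternatives and in 11 of 16 fits that left out 1 array, and its change was 0.59 on the first slide and 0.20 on the second. The ciliated median was 0.28, and the summed level was 1.594 to 1.820 in the ozone lungs of 24 h. In the air lungs of 24 h it was 1.244 to 1.587, with no overlap. At 6 h 2 ciliated markers fell, Mlf1 by 0.55 ± 0.13 and Sntn by 0.48 ± 0.13 (adjusted p of 0.0280 and 0.0420). Mlf1 was called in 9 of 14 alternatives and in 11 of 16 fits that left out 1 array, and Sntn in 6 of 14 and 5 of 16, with -0.16 under normexp (adjusted p = 0.644). Of the 19 ciliated markers, 9 had an unadjusted p under 0.05 at 6 h. Over all 21629 genes, a limma p of 0.0535 ranked 4705 at 6 h and one of 0.0414 ranked 2647 at 24 h. The list had a median of -0.21 and summed levels of 1.60 to 1.86 in ozone and 1.85 to 2.04 in air lungs of 6 h. The part of ciliated cells in the changes of the 9 genes was not tested. Of 14 alveolar type II markers, 2 fell at 24 h, the fatty acid desaturase Scd1 by 0.61 ± 0.14 and the chemokine Cxcl15 by 0.35 ± 0.09 (adjusted p of 0.0347 and 0.0499). Scd1 was called in 9 of 14 alternatives and Cxcl15 in 5. Their list had a median of 0.05. Of 11 leukocyte genes, the T cell kinase Lck rose by 0.51 ± 0.13 at 24 h (adjusted p = 0.0456) and was called in 4 of 14 alternatives. Of these 11, 6 had an unadjusted limma p under 0.05 at 24 h. Their median was 0.34, and -0.04 under normexp. Their summed level was 2.41 to 2.89 in ozone and 2.63 to 3.08 in air lungs of 24 h.

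None of 10 alveolar type I, 10 goblet, 8 basal, 9 liver and 7 adipocyte markers was called at 24 h by limma, with 4, 3, 1, 0 and 3 under an unadjusted p of 0.05. At 6 h these lists also had no call, with 1, 1, 4, 1 and 0 under that p, nor had the alveolar type II and leukocyte lists, with 6 and 0. These counts are to be read beside the ranks over all genes, where a limma p of 0.0535 at 6 h ranked 4705 among 21629. Liver markers had a summed level of -4.48 to -3.45 in ozone and -4.02 to -2.85 in air lungs of 24 h. Adipocyte markers stood apart in single lungs. Their summed level was -0.59, -0.29, 0.82 and 2.80 in the ozone lungs of 24 h, against -0.31, -0.50, 0.00 and -0.10 in the air lungs of 24 h. Ozone replicates 3 and 4 were thus above every air lung. At 6 h the level was 0.61 to 1.09 in ozone lungs and 0.41 to 3.04 in air lungs, with air replicate 1 the highest. The list had a median change of 1.09 at 24 h, with 7 of 7 genes above 0, and of -0.44 at 6 h, with 2 of 7. Among their defining markers Cfd was well above background on 4 ozone and 1 air array of 24 h, Adipoq on 3 and 3, and Lep on none. Plin1, Cidec, Fabp4 and Retn were well above background on 4 and 4, and Ucp1 on 3 and 4. On the slide with replicates 1 and 2 Ces1d, Aldh1a1 and Sec14l3 had changes of 0.47, 0.54 and 0.67, and on the slide with replicates 3 and 4 of 0.65, 0.50 and 0.35, with no call on either. The part of fat tissue in these changes was not tested.

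From lung to lung the 9 genes did not move as 1 block. With group means taken off, 28 of their 36 pairs had a correlation above 0 over the 16 arrays, with a median r of 0.10. All pairs share arrays and scaling, so these are descriptions. The highest r was 0.77, between Scgb3a1 and Bpifa1, followed by 0.70 between Scgb3a1 and Scgb3a2 and 0.65 between Scgb1a1 and Ces1d. The lowest was -0.67, between Ces1d and the brightest Sec14l3 probe. With the other 3 Sec14l3 probes Ces1d had an r of 0.52, 0.61 and 0.76, so the sign turned with the probe. With the mean of the adipocyte markers, r was 0.66 for Bpifa1, 0.63 for Fmo2 and 0.55 for Scgb3a1, against 0.05 for Ces1d, 0.20 for Sec14l3 and 0.23 for Aldh1a1. The part of fat tissue in the spread of Bpifa1, Fmo2 and Scgb3a1 was not tested.

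The 10 genes most like the mean of the 9, by Pearson r over the 16 arrays with group means taken off, were Reg3g (0.87), Akr1c18 (0.86), Steap1 (0.85), Itprid1 (0.83), Pglyrp1 (0.83), Agr2 (0.83), 4930444P10Rik (0.82), Serpinb12 (0.81), Nme9 (0.80) and Cxcl17 (0.79). The median r over all genes was -0.06. Scgb3a1 and Bpifa1 vary most and weigh most in that mean. Of these 10 genes, 2 were called at 24 h, the chemokine Cxcl17 at 0.72 ± 0.16 (limma adjusted p = 0.0217) and Itprid1 at 0.47 ± 0.12 (adjusted p = 0.0438), both higher in ozone lungs. At 6 h Nme9 was called and fell by 0.39 (adjusted p = 0.0181). The mean of the other club cell genes had an r of 0.83 with the mean of the 9, followed by adipocyte markers at 0.68. Goblet markers had 0.59, ciliated markers 0.54 and basal markers 0.43. The lowest were alveolar type II markers at -0.29 and leukocyte markers at -0.37.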

How the data were processed

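Total RNA of 16 newborn mouse lungs was labelled with Cy3 and hybridised to 1-colour Agilent arrays, 4 per group of exposure and time. The deposited scanner files give the linear intensity of each spot from Agilent Feature Extraction 10.7.1.1, per the file headers, with other values that flag spots well above background, saturated or uneven. The processed intensity already had its background subtracted, per the file headers. A further deposited table holds log2 values. Sorted, they matched across arrays of 1 time to 0.001 in 99.98% or more of probes. The median was 6.41 for the 6 h arrays and 6.73 for the 24 h arrays, so the times were normalized apart. Its background treatment is not given in the labels or headers, and it was an alternative only. Positions of probes follow the array's design on mm9.

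Control spots and 157 probes with an uneven spot were left out, spots of a probe were averaged, and log2 signal minus the array's 75th percentile over 41174 probes was used. Kept were probes that 4 or more of the 16 arrays flagged as well above background, and the probe with the highest mean stood for its gene, which gave 21629 genes, 7335 of them with several probes. Names came from a RefSeq table by accession (25089 probes), symbol (6339) or synonym (1639), and 8107 kept the file's name. The test was that of limma 3.58.1 under R 4.3.3 (lmFit, eBayes with trend, 1 mean per group over all 16 arrays, two-sided, Benjamini-Hochberg), and the fit was tested on simulated data. Intervals are 95% from the same fit. The summed level of a marker list is the log2 of the mean linear signal over its tested genes.

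The 9 genes, the lists and the tests were chosen with earlier results of these data known. Named are the 9 genes, up to 4 genes with the smallest p per list and time, and the 10 genes most like the mean of the 9, with the exceptions said in the text. Lists were other club cell genes, relatives, retinoid genes, airway transcription factors and Notch, and markers of ciliated, alveolar type I and II, goblet, basal, liver, fat and blood cells. Not every gene that the rule takes is described singly, and 1 called relative is not reported here. Alternatives were normexp (offset 50), quantile normalization, the deposited table, other filters, the mean of probes, slide or replicate as a block, each slide alone, only the arrays of a time, array weights, Xist as a covariate, eBayes without trend and leaving out each array.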

Additional observations from a re-analysis of the deposited data

Results flagged for a closer look

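In each group of 4 arrays and each of the 14 probes, 56 sets in all, the highest or lowest array was set against the others by Dixon's test at 95%, which chance passes in about 1 of 20 sets. It singled out 4 values. The Sec14l3 probe A_52_P339204, which crosses an exon junction, was at -0.18 in ozone replicate 1 of 24 h, with the other ozone lungs at 0.29 to 0.38. The Aox3 probe A_52_P16752 was at -1.93 in the same lung, with the others at -1.58 to -1.55. The Sec14l3 probe A_52_P656455 was at 2.81 in air replicate 2 of 6 h, with the others at 2.57 to 2.61, and the Fmo2 probe A_52_P273891 was at -1.10 in air replicate 1 of 24 h, with the others at -1.30 to -1.27.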

How the results depend on the processing

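Of the 9 genes, 3 were called at 24 h in the fit reported and 3 to 4 in the fits that left out 1 array, the fourth being Scgb3a1 without ozone replicate 1. The count was 0 on the first slide, 0 on the second slide and 6 with array weights, and 3 with slide as a block. At 6 h it was 0, and 1 with quantile normalization. For the difference between times it was 0, 3 with normexp and 3 with array weights. Sec14l3 and Aldh1a1 were called at 24 h in 11 of 14 alternatives, Ces1d in 12 of 14, and all 3 in 16 of 16 fits that left out 1 array. Ces1d ranged from 0.47 to 0.69, Aldh1a1 from 0.48 to 0.61 and Sec14l3 from 0.35 to 0.67 over the alternatives. Among the other club cell genes 5 were higher at 24 h, 3 to 5 with 1 array left out, 0 on the first slide, 1 on the second slide, 13 with array weights and 3 with Xist as a covariate. Each slide alone has 2 arrays per group, and over all genes it made 0 and 121 calls at 24 h, against 434 with all arrays and 1738 with array weights. With only the arrays of a time fitted, all genes gave 100 calls at 6 h and 586 at 24 h, against 970 and 434 in the fit reported. No called change of these genes turned its sign under the alternatives run. Replicate numbers are shared by the groups, and the deviations of same-numbered ozone and air arrays of 1 time correlated at -0.01 to 0.20. Those of differently numbered arrays correlated at -0.37 to 0.43. The labels do not say whether a number stands for a litter or batch, and these values cannot decide it. With the replicate block 4 of the 9 genes and 5 of the other club cell genes were called at 24 h, 0 of the 9 were called at 6 h and 0 of the differences were called, and over all genes 247 at 6 h, against 970 without it, and 261 at 24 h. All 14 probes were well above background on all 16 arrays.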
